A study of Mus musculus with 8 samples.

Results

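The genes described here encode the enzymes and scaffolds that build and break down glycogen, the branched storage polymer of glucose, in the cortex of mice after a fast. They are the 9 rows of the expression table named Ugp2, Gyg, Gys1, Gbe1, Ppp1r3c, Ppp1r3d, Ppp1r3g, Pygb and Pygm, out of 24344 distinct symbols, and all 9 were high enough to be tested. The RNA came from occipital cortex homogenates of C57BL/6J animals aged 35 postnatal days. There were 8 libraries, 4 from mice fasted for 48 h and 4 from mice with free access to food (ad libitum), with no other treatment or allele named in the labels. Values are FPKM, the fragments of a gene scaled to its transcript length and to the mapped fragments of the library, so that levels can be set side by side between genes.

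In brain, glycogen is held mainly by astrocytes. Synthesis runs through UDP-glucose, which UGP2 makes from glucose 1-phosphate. Glycogenin (Gyg) starts the chain on itself, glycogen synthase (Gys1) lengthens it and the branching enzyme (Gbe1) sets the branch points. Breakdown is carried out by glycogen phosphorylase, of which brain expresses the brain isoform (Pygb) and the muscle isoform (Pygm). The PPP1R3 proteins tie protein phosphatase 1 to glycogen, where the phosphatase activates the synthase and switches off phosphorylase. Phosphorylase kinase acts the other way and activates phosphorylase. The brain's store is known to be far smaller than that of liver or muscle.

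The libraries were of similar depth. An estimate from the smallest values of genes with a single transcript gave 17600000 to 21700000 fragments per library. On a transcript of 2 kb, 1 FPKM then stood for 35.2 to 43.4 fragments, but the search was confined to a fixed range and the estimate is uncertain. Between 12217 and 12440 genes reached 1 FPKM. Ad libitum replicate 2 stood apart in the share of summed FPKM taken by its 10 highest genes, 24.1%. Ad libitum replicate 3 followed with 13.8% and fasted replicate 2 with 9.78%, and the other 5 libraries lay between 3.98% and 6.40%. Libraries with odd replicate numbers held Y-linked transcripts and those with even numbers held Xist. Ad libitum replicate 3 held both, with 32.2 FPKM of Xist and a sum of 20.2 FPKM over 4 Y-linked genes. For the glycogen genes, results are given without this library where a call changes. Slc17a7, the vesicular glutamate transporter gene that marks excitatory neurons of the cortex, averaged 406.2 FPKM in fasted and 405.5 FPKM in ad libitum libraries. The labels do not say whether each library came from a single mouse, so p-values measure the spread between these libraries.

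Of the 9 glycogen genes 3 fell and 1 rose in fasted cortex (limma, Benjamini-Hochberg adjusted p under 0.05 over 12377 tested genes). All 3 that fell, Ugp2, Gyg and Gys1, belong to the synthesis arm, and the gene that rose, Pygm, encodes a phosphorylase. The other synthesis gene, Gbe1, lay higher in all 4 fasted libraries but did not pass (limma adjusted p = 0.131). Nor did Pygb, the phosphorylase gene with the higher level (limma adjusted p = 0.821). The calls of Gys1 and Pygm each ended in some fits with 1 library left out. Over all tested genes 16.3% were lower, 9.56% higher and 25.8% changed in either direction. Whether 4 of 9 exceeds that background was not tested. The balance over all genes also depended on scaling, with 1183 higher and 2015 lower as reported, 1753 and 1936 after median-ratio scaling, and 1792 and 1909 after quantile scaling. The median log2 difference of the 9 genes was 0.017, beside -0.024 over all tested genes. The values of fasted and ad libitum libraries did not overlap for 4 of the 9, where 27.6% of all tested genes did not overlap.

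**Figure D1:**
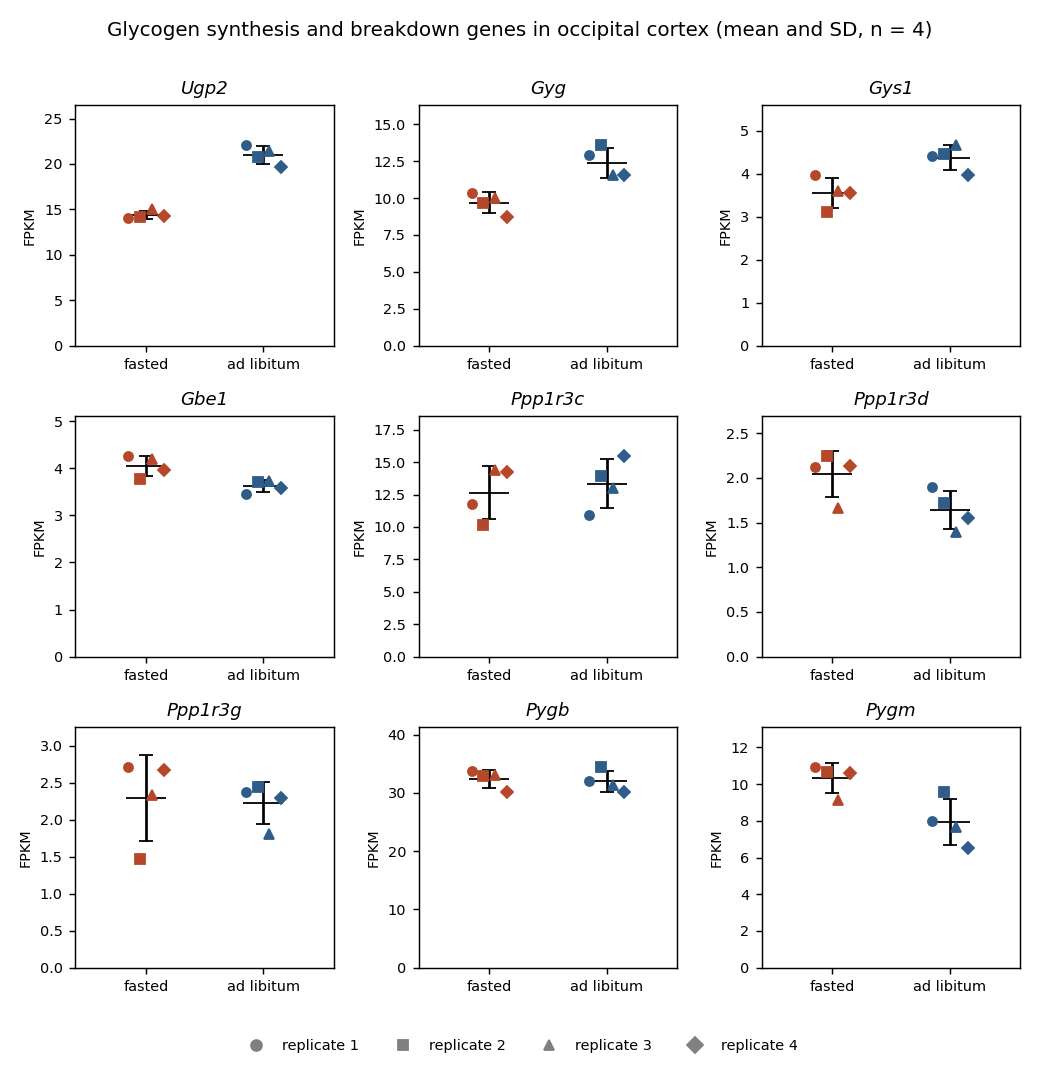
FPKM of the 9 glycogen genes in each library (y axis from 0) for fasted and ad libitum cortex, with the mean and SD of 4 libraries in black and the replicate number as the symbol. Ugp2, Gyg and Gys1 lie lower in all 4 fasted libraries, Gbe1 lies higher in all 4, and the other genes overlap.

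The promoters of the 4 genes that passed the test are shown because 3 of them moved down together and 1 moved up. Each is given from 250 bases before to 50 bases after the RefSeq transcript start (GRCm38.p6), 5′ to 3′ on the gene's strand. Capitals mark the letters ACGTG (the core bound by hypoxia-inducible factors), CACGTG (the E-box, which contains ACGTG) and GGGCGG (the GC box) on either strand. A further RefSeq start of Ugp2 is included in the motif counts and not printed.
Ugp2 (chr11:21371218-21371517, minus strand): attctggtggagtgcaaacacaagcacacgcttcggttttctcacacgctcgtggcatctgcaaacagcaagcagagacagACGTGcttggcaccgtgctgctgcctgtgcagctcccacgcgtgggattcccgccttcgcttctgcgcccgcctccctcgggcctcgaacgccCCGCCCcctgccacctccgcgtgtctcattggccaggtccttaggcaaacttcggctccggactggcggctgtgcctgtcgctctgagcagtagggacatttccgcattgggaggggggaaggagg
Gyg (chr3:20155067-20155366, minus strand): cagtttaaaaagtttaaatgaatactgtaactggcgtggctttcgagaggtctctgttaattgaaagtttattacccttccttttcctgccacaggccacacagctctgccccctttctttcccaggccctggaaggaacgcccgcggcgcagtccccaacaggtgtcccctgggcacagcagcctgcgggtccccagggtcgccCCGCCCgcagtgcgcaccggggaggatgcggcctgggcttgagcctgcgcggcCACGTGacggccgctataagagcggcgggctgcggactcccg
Gys1 (chr7:45434589-45434888, plus strand): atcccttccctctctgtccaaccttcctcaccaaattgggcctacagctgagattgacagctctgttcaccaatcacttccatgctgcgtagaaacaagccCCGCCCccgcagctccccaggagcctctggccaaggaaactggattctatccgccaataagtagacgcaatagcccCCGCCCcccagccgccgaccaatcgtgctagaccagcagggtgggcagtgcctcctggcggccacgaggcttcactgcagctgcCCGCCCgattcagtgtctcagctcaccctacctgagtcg
Pygm (chr19:6384158-6384457, plus strand): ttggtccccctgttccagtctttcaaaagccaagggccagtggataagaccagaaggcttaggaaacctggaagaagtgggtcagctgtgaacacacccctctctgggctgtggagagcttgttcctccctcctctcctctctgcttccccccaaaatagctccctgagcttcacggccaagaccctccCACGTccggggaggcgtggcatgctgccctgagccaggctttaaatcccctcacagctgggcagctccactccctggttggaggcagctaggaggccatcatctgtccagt

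ACGTG stood in the promoters of 7 of the 9 genes, among them Ugp2, Gyg and Pygm, and in 19.6% of the 32851 mouse promoters in the table. The full CACGTG stood in those of Gyg, Ppp1r3c and Ppp1r3d, and in 7.15% of all promoters. GGGCGG stood in those of 6 of the 9, and in 35.7% of all. TGTTCT (a hexamer bound by the glucocorticoid receptor), GTAAACA (bound by forkhead factors) and TGACGTCA (the cAMP element) stood in those of 0 of the 9. They stood in 19%, 3.65% and 1.79% of all promoters. The promoters of the 9 genes had GC contents from 54.3% to 77.0%, against a median of 52.7% over all, and both motifs that were common among them are rich in G and C or hold CpG. Pygm, the gene that rose, had ACGTG and no GGGCGG in this window, while Gys1 had GGGCGG at 3 places and no ACGTG. Ugp2 and Gyg, which fell, held both motifs. Pygb and Ppp1r3c, which did not pass the test, had ACGTG and no GGGCGG like Pygm. A match in these windows describes their letters only.

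Ugp2 (ENSMUSG00000001891.16, chromosome 11, 21321138 to 21371201, minus strand) encodes UDP-glucose pyrophosphorylase, whose product also feeds glycoprotein and proteoglycan synthesis. It was at 14.1, 14.1, 15.0 and 14.3 FPKM in fasted replicates 1 to 4, against 22.1, 20.7, 21.5 and 19.7 FPKM in ad libitum replicates 1 to 4. Every fasted library lay below every ad libitum library, with a gap wider than the spread inside either group. The mean was 14.4 FPKM ± 0.439 in fasted and 21.0 ± 1.04 in ad libitum cortex (SD, n = 4 each), a ratio of 0.684. Expressed as log2(FPKM + 1), a scale that shrinks changes at low levels, the difference was -0.52 with SE 0.052 (limma adjusted p = 0.000114). This was the largest difference in size among the 9 genes, and it passed in all 19 alternative settings, with adjusted p up to 0.000921.

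Gyg (ENSMUSG00000019528.18, chromosome 3, 20122084 to 20155317, minus strand) encodes glycogenin, the protein primer of the glycogen particle. It was at 10.4, 9.70, 10.004 and 8.71 FPKM in fasted libraries, against 12.9, 13.6, 11.5 and 11.6 FPKM in ad libitum libraries. The groups did not overlap. The means were 9.69 ± 0.713 FPKM in fasted and 12.4 ± 1.01 FPKM in ad libitum cortex (SD, n = 4 each). The log2 difference was -0.33 with SE 0.069 (limma adjusted p = 0.00635). It also passed in all 19 alternative settings, with adjusted p up to 0.0208.

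Gys1 (ENSMUSG00000003865.16, chromosome 7, 45434844 to 45456619, plus strand) encodes the glycogen synthase of muscle and brain. It was at 3.98, 3.12, 3.59 and 3.54 FPKM in fasted libraries, against 4.41, 4.45, 4.67 and 3.98 FPKM in ad libitum libraries. The groups did not overlap, but fasted replicate 1 and ad libitum replicate 4 were nearly equal. The log2 difference was -0.24 with SE 0.071 (limma adjusted p = 0.0287). The call ended when any of fasted replicates 2, 3 and 4 or ad libitum replicates 1, 2 and 3 was left out, with adjusted p from 0.0565 to 0.0881. Of the exon bases of Gys1, 6.47% are shared with Ruvbl2 on the opposite strand, and whether the libraries keep strand is not given in the sources used here. Ruvbl2 averaged 7.81 FPKM in fasted and 8.54 FPKM in ad libitum cortex (limma adjusted p = 0.285). The liver synthase gene Gys2 was at or below 0.126 FPKM in every library.

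Gbe1 (ENSMUSG00000022707.16, chromosome 16, 70313949 to 70569716, plus strand), the branching enzyme gene, did not follow the other synthesis genes. It was at 4.26, 3.77, 4.19 and 3.97 FPKM in fasted libraries, against 3.46, 3.71, 3.73 and 3.58 FPKM in ad libitum libraries. All 4 fasted libraries lay above the highest ad libitum library, by a small margin for fasted replicate 2. The log2 difference of 0.13 had a 95% confidence interval from -0.00040 to 0.25 and missed the threshold (limma adjusted p = 0.131), nor in any of the 19 alternative settings (adjusted p from 0.0532 to 0.260). The order of Gys1 and Gbe1 differed between the groups. Gys1 FPKM divided by Gbe1 FPKM was 0.934, 0.826, 0.856 and 0.892 in fasted libraries, against 1.27, 1.201, 1.25 and 1.11 in ad libitum libraries. Gbe1 thus had the higher level in 4 of 4 fasted libraries and Gys1 in 4 of 4 ad libitum libraries. That ratio was formed after the values were seen and has no test.

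Pygm (ENSMUSG00000032648.14, chromosome 19, 6384399 to 6398459, plus strand) encodes the muscle isoform of glycogen phosphorylase. It was at 10.9, 10.6, 9.14 and 10.6 FPKM in fasted libraries, against 8.01, 9.55, 7.64 and 6.54 FPKM in ad libitum libraries. Of the fasted libraries 3 lay above all ad libitum libraries, while fasted replicate 3 lay below ad libitum replicate 2. The means were 10.3 ± 0.805 FPKM in fasted and 7.94 ± 1.25 FPKM in ad libitum cortex (SD, n = 4 each), a ratio of 1.30. On the log2 scale it was higher by 0.35 with SE 0.094 (limma adjusted p = 0.0191). The call ended without ad libitum replicate 3 (adjusted p = 0.0534) and without fasted replicate 2 (adjusted p = 0.0525), and the difference then stood at 0.34 each time. Since Pygm is known from skeletal muscle, muscle marker genes were examined: 1 of 11 was high enough to be tested, and it did not pass. That gene, Acta1, averaged 3.73 FPKM in fasted and 3.70 FPKM in ad libitum cortex. Ckm averaged 0.030 and 0.040 FPKM and Mylpf 0.376 and 0.330 FPKM in fasted and ad libitum cortex. The summed level of the 11 genes ran from 5.58 to 6.39 FPKM in fasted libraries and from 4.69 to 6.37 FPKM in ad libitum libraries.

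Pygb (ENSMUSG00000033059.7, chromosome 2, 150786735 to 150831758, plus strand), the brain phosphorylase, had the highest level of the 9 genes in every library. It was at 33.7, 32.9, 33.0 and 30.2 FPKM in fasted libraries, against 32.1, 34.4, 31.3 and 30.1 FPKM in ad libitum libraries. The groups overlapped fully. Its log2 difference was 0.020 with a 95% confidence interval from -0.10 to 0.14 (limma adjusted p = 0.821). The liver isoform Pygl, with a mean of 0.784 FPKM in fasted and 0.712 FPKM in ad libitum cortex, was too low to be tested.

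As a share of the summed FPKM of the 3 phosphorylase genes, Pygm made up 24.2%, 23.8%, 21.3% and 25.6% in fasted libraries, against 19.7%, 21.2%, 19.2% and 17.6% in ad libitum libraries. The lowest fasted share lay just above the highest ad libitum share. Pygb made up 74.5% ± 1.73 in fasted and 78.8% ± 1.77 in ad libitum cortex (SD, n = 4 each). Gys1 FPKM stood at 8.17% ± 0.817 of the phosphorylase sum in fasted and 10.8% ± 0.756 in ad libitum cortex (SD, n = 4 each), with no overlap between libraries. These shares are descriptions of RNA levels and carry no test.

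Among the subunits that bring protein phosphatase 1 to glycogen, 0 of 3 passed the limma test after adjustment, and 1 of 3, Ppp1r3d, was below the threshold before it. Ppp1r3c (ENSMUSG00000067279.3, chromosome 19, 36731731 to 36736653), which encodes PTG, the protein targeting to glycogen, was at 11.8, 10.2, 14.4 and 14.2 FPKM in fasted libraries, against 10.9, 13.9, 13.0 and 15.5 FPKM in ad libitum libraries. The libraries of each group were widely spread and overlapped. Its log2 difference was -0.076 with a 95% confidence interval from -0.33 to 0.18 (limma adjusted p = 0.663), an interval that spans changes of either sign.

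Ppp1r3d (ENSMUSG00000049999.4, chromosome 2, 178411206 to 178414472), a more widely expressed targeting subunit, was at 2.12, 2.25, 1.66 and 2.14 FPKM in fasted libraries, against 1.89, 1.72, 1.395 and 1.55 FPKM in ad libitum libraries. In each replicate number the fasted library was the higher of the pair, while the groups overlapped through fasted replicate 3. The log2 difference was 0.20 with SE 0.084 (limma adjusted p = 0.0990). With the replicate number as a block the adjusted p was 0.0417, which brings the number of higher genes to 2 of 9. It was also under the threshold after quantile scaling (adjusted p = 0.0467) and without fasted replicate 3 (adjusted p = 0.0442).

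Ppp1r3g (ENSMUSG00000050423.11, chromosome 13, 35958839 to 35970388), a targeting subunit known in mouse liver for its rise during fasting, was at 2.71, 1.47, 2.33 and 2.67 FPKM in fasted libraries, against 2.37, 2.44, 1.80 and 2.29 FPKM in ad libitum libraries. Fasted replicate 2 was the lowest of all 8 libraries and fasted replicate 1 the highest. The log2 difference was 0.017 with a 95% confidence interval from -0.26 to 0.29 (limma adjusted p = 0.933). Of the summed FPKM of the Ppp1r3 genes, Ppp1r3c made up 50.3% ± 5.27 in fasted and 54.0% ± 5.95 in ad libitum cortex (SD, n = 4 each). The next in size was Ppp1r3f, with 20.2% ± 3.96 in fasted and 16.6% ± 3.10 in ad libitum cortex (SD, n = 4 each).

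The order of levels among the 9 genes was led in both groups by Pygb, then Ugp2, then Ppp1r3c. In fasted cortex Ugp2, Ppp1r3c, Pygm and Gyg followed each other with overlapping ranges between neighbours, and in ad libitum cortex only Ppp1r3c and Gyg did among these. Pygm stood above Gyg in 3 of 4 fasted libraries and in 0 of 4 ad libitum libraries. That change of order restates the differences of these genes given above, was not planned and has no test. Gbe1 and Gys1 came next, with overlapping ranges in fasted cortex and separate ranges in ad libitum cortex. Ppp1r3g and Ppp1r3d were lowest in both groups, and their ranges overlapped.

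**Figure D2:**
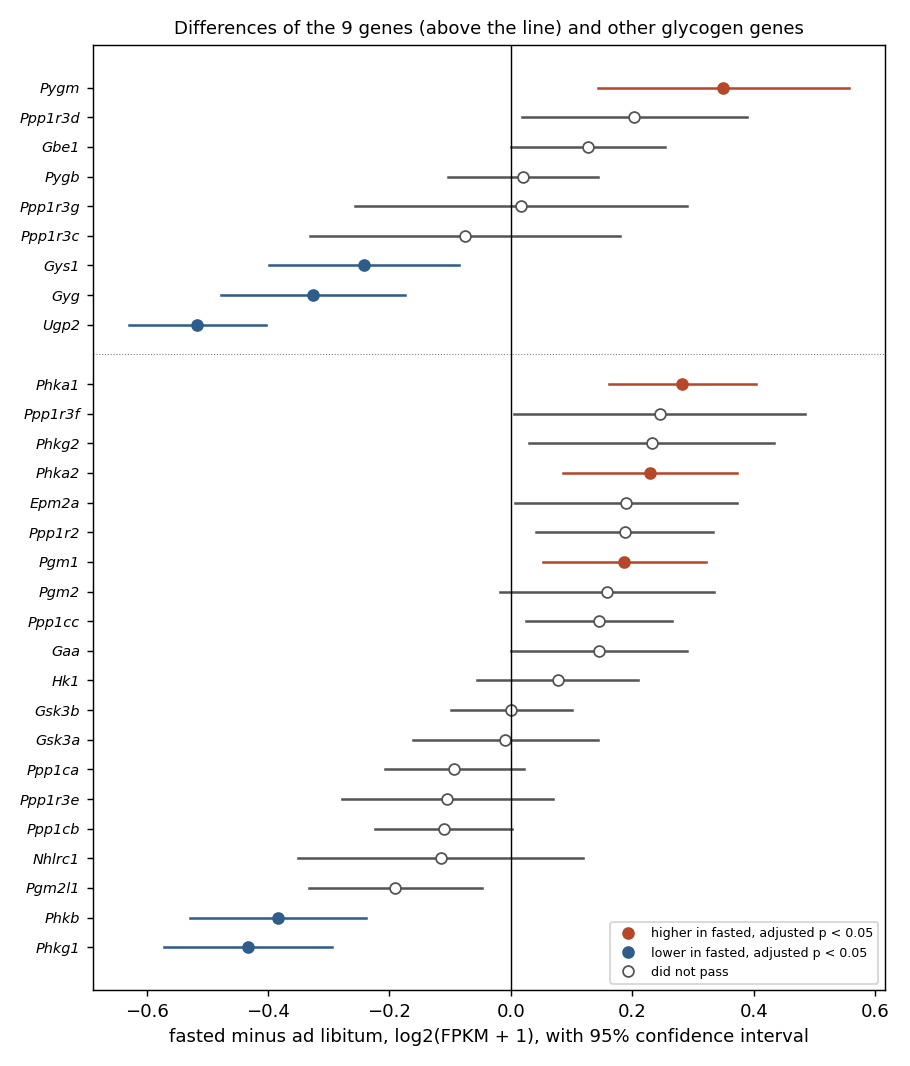
Difference between fasted and ad libitum cortex on the log2(FPKM + 1) scale (x axis) with its 95% confidence interval, for the 9 glycogen genes above the dotted line and 20 other tested glycogen genes below it. Filled points passed the limma test at an adjusted p under 0.05: Pygm, Phka1, Phka2 and Pgm1 lie to the right of 0, and Ugp2, Gyg, Gys1, Phkb and Phkg1 to the left.

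Of 27 other genes of glycogen metabolism and its control, 21 were high enough to be tested, of which 3 rose and 2 fell, with a median log2 difference of 0.077. The 5 made up 23.8% of the 21, beside 25.8% of all tested genes, and how these shares compared depended on scaling and on the model. With the replicate number as a block 12 of the 21 changed (57.1%, beside 36.4% of all tested genes). After median-ratio scaling 10 of the 21 changed (47.6%, beside 29.8% of all tested genes), after quantile scaling 9 (42.9%, beside 29.9%) and after equal-sum scaling 7 (33.3%, beside 27.4%). Fasted and ad libitum libraries did not overlap for 8 of the 21, where 27.6% of all tested genes did not overlap. Of the 5, 4 encode subunits of phosphorylase kinase, and these did not move in the same direction. The regulatory alpha subunit genes rose. Phka1, the muscle isoform, was at 3.74, 3.94, 3.84 and 3.98 FPKM in fasted libraries, against 3.12, 3.04, 2.92 and 2.94 FPKM in ad libitum libraries. Every fasted library lay above every ad libitum library, and the log2 difference was 0.28 with SE 0.055 (limma adjusted p = 0.00392). Phka2, the liver isoform, was at 7.04, 8.31, 7.78 and 8.52 FPKM in fasted libraries, against 6.29, 6.32, 6.85 and 6.90 FPKM in ad libitum libraries. Its groups did not overlap either, but its log2 difference of 0.23 (limma adjusted p = 0.0241) was less secure. The call for Phka2 ended without any of fasted replicates 2, 3 and 4 or ad libitum replicates 1 and 2 (adjusted p from 0.0506 to 0.0655), and after equal-sum scaling (adjusted p = 0.0518).

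The beta subunit gene Phkb fell. It was at 4.21, 4.24, 4.83 and 3.84 FPKM in fasted libraries, against 5.55, 6.00, 6.13 and 5.82 FPKM in ad libitum libraries, without overlap. On the log2 scale the difference was -0.38 with SE 0.066 (limma adjusted p = 0.00213). Phkg1, which encodes the catalytic gamma subunit of muscle, was at 3.79, 3.34, 3.37 and 3.17 FPKM in fasted libraries, against 4.84, 5.02, 5.27 and 4.71 FPKM in ad libitum libraries. This gene also showed no overlap, and its log2 difference was -0.43 with SE 0.063 (limma adjusted p = 0.000917). Phka1, Phkb and Phkg1 passed in all 19 alternative settings. Of the exon bases of Phkg1, 9.68% are shared with Sumf2 on the opposite strand, which averaged 2.47 FPKM in fasted and 3.47 FPKM in ad libitum cortex (log2 difference -0.36, limma adjusted p = 0.0077). Its part in the value of Phkg1 was not tested.

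Phkg2, the gamma subunit gene of liver and other tissues, had the higher level of the gamma pair, at 12.7 ± 0.973 FPKM in fasted and 10.8 ± 1.56 FPKM in ad libitum cortex (SD, n = 4 each). Its log2 difference of 0.23 did not pass (limma adjusted p = 0.0850) but did with the replicate block (adjusted p = 0.00786). It also passed after median-ratio, quantile and equal-sum scaling (adjusted p = 0.0255, 0.0339 and 0.0189) and without ad libitum replicate 1 (adjusted p = 0.0310). Phkg1 made up 22.2%, 19.9%, 20.7% and 21.9% of the summed FPKM of the gamma pair in fasted libraries, against 27.9%, 30.7%, 33.8% and 34.8% in ad libitum libraries. All fasted shares lay below all ad libitum shares. For the alpha pair the Phka1 share overlapped between the groups, at 32.9% ± 1.28 in fasted and 31.4% ± 1.71 in ad libitum cortex (SD, n = 4 each). The shares of these pairs were not among those planned and have no test.

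**Figure D3:**
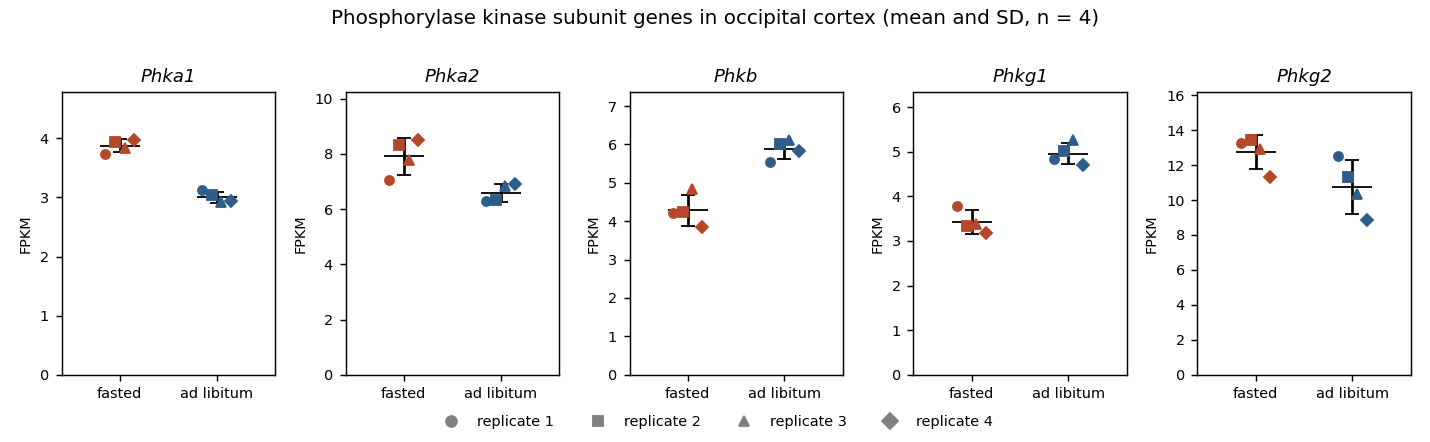
FPKM of the 5 phosphorylase kinase subunit genes in each library (y axis from 0) for fasted and ad libitum cortex, with the mean and SD of 4 libraries in black and the replicate number as the symbol. Phka1 and Phka2 lie higher and Phkb and Phkg1 lower in all 4 fasted libraries, and Phkg2 overlaps.

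The remaining gene that rose was the phosphoglucomutase gene Pgm1, whose enzyme class interconverts glucose 1-phosphate and glucose 6-phosphate. It averaged 6.54 ± 0.327 FPKM in fasted and 5.63 ± 0.380 FPKM in ad libitum cortex (SD, n = 4 each), a log2 difference of 0.19 (limma adjusted p = 0.0428). Its call was lost when low genes were not filtered (adjusted p = 0.0567), under a term for odd and even replicates (adjusted p = 0.0558), and when fasted replicates 2, 3 or 4 or ad libitum replicates 1, 2 or 4 were left out (adjusted p from 0.0732 to 0.102). The symbols Pgm1 and Pgm2 have been exchanged between mouse annotations, and the annotation behind the table is not given in the sources used here, so which phosphoglucomutase this is remains uncertain. Overlapping genes on the opposite strand also share 13.6% of the exon bases of Pgm1, 2.54% of those of Ugp2 and 1.9% of those of Phka2. The lysosomal glucosidase gene Gaa averaged 65.2 and 58.8 FPKM in fasted and ad libitum cortex, a log2 difference of 0.14 (adjusted p = 0.130), and passed with the replicate block (adjusted p = 0.0213), after median-ratio scaling (adjusted p = 0.0298) and after quantile scaling (adjusted p = 0.0188). The laforin gene Epm2a was at 8.66 and 7.46 FPKM (adjusted p = 0.116) and the malin gene Nhlrc1 at 3.58 and 3.94 FPKM (adjusted p = 0.457) in fasted and ad libitum cortex. Both proteins are known to keep glycogen soluble. With the replicate number as a block 9 of the 21 genes were higher and 3 lower, while 1773 of all 12377 tested genes were higher and 2733 lower.

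Markers of the cells that hold glycogen moved in part. Of 10 astrocyte markers 1 rose and 3 fell, and the summed level ran from 796.3 to 875.5 FPKM in fasted libraries and from 808.5 to 872.5 FPKM in ad libitum libraries. Aldh1l1, an enzyme gene used to define astrocytes, averaged 16.8 FPKM in fasted and 16.6 FPKM in ad libitum cortex (limma adjusted p = 0.879). Aqp4, the water channel of astrocyte endfeet, fell to 13.3 FPKM in fasted cortex, against 23.8 FPKM in ad libitum cortex (adjusted p = 2.05e-05). Gjb6, the connexin 30 gene of astrocyte gap junctions, was the marker that rose, at 27.2 FPKM in fasted and 15.6 FPKM in ad libitum cortex (log2 difference 0.77, limma adjusted p = 0.000342). Gja1, also a gap junction gene, fell, at 48.0 FPKM in fasted and 55.6 FPKM in ad libitum cortex (log2 difference -0.21, limma adjusted p = 0.0127). So did Gfap, at 29.6 and 36.0 FPKM in fasted and ad libitum cortex (log2 difference -0.28, limma adjusted p = 0.0273). Slc1a2, the main astrocyte glutamate transporter gene, averaged 273.3 and 290.4 FPKM in fasted and ad libitum cortex (adjusted p = 0.268). Of 7 microglial markers 5 fell and 0 rose, with sums from 60.8 to 65.9 FPKM in fasted libraries and from 72.2 to 94.2 FPKM in ad libitum libraries. Of 6 endothelial markers 2 fell, of 6 smooth muscle and pericyte markers 1 fell among 4 tested, and of 8 oligodendrocyte markers 1 rose and 1 fell. Of 10 neuronal markers 1 rose and 3 fell. Over all tested genes 9.56% rose and 16.3% fell, and whether any marker list departs from those shares was not tested. In a homogenate, fewer cells of a type and less RNA per cell cannot be told apart, and the part of these markers in the values of the glycogen genes was not tested.

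Within the groups, the 9 genes did not vary as a single block. The highest correlation between deviations from the group mean over the 8 libraries was that of Gyg and Pygb (Pearson r = 0.943), followed by Gys1 and Gbe1 (r = 0.781), among 36 pairs. The lowest was that of Ppp1r3c and Ppp1r3d (r = -0.621). These values describe 8 libraries that share replicate numbers and scaling, and carry no p. Over the tested genes other than the 9 and sex-linked genes, the closest patterns across the 8 libraries were sought. The pattern most like that of Ugp2 was shown by Rbm28 (r = 0.995) and Taf15 (r = 0.992), both of which encode RNA-binding proteins. Those most like Gyg were Pdia3 (r = 0.993) and Prmt2 (r = 0.992), and those most like Gys1 were Fermt2 (r = 0.996) and Chchd5 (r = 0.984). Those most like Pygm were A630072M18Rik (r = 0.992) and Rab26 (r = 0.983). A630072M18Rik had a low level, with means of 1.47 FPKM in fasted and 1.28 FPKM in ad libitum cortex, and did not pass (limma adjusted p = 0.210). These correlations with genes outside the 9 include the difference between the groups and were the highest out of the genes searched.

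**Figure D4:**
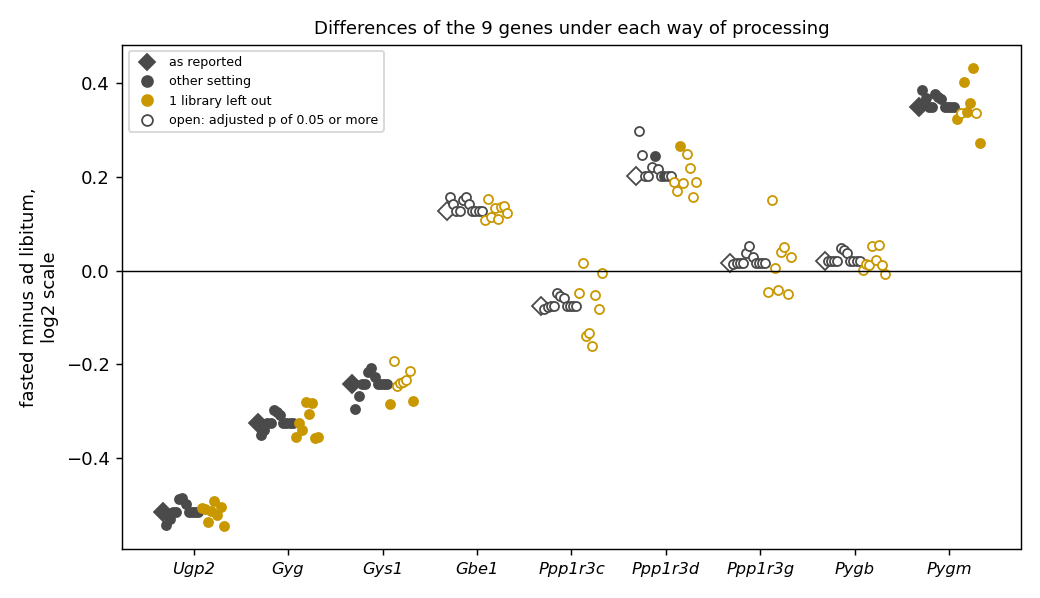
Difference between fasted and ad libitum cortex on the log2 scale (y axis) for each of the 9 glycogen genes as reported (diamond), under 11 other settings (dark points) and with each of the 8 libraries left out (yellow points). Filled symbols passed the limma test: Ugp2 and Gyg are filled throughout, Gys1 and Pygm are open in some points where a library was left out, and Ppp1r3c, Ppp1r3g and Pygb lie on both sides of 0.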

How the data were processed

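Libraries were grouped by treatment label and numbered by title. TopHat and genome build mm10 are named in the submitters' processing notes. The deposited values are FPKM made by the authors, and no further scaling between libraries is stated. Neither the quantification program nor the annotation nor strandedness is given in the sources used here.

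The table held 24883 rows. Of 282 symbols on several rows, the row with the highest mean was used. A gene was tested if at least 4 libraries had 1 FPKM or more. The test was that of limma 3.58.1 (R 4.3.3) on log2(FPKM + 1), with group as the only term, a trended and robust empirical Bayes step, and Benjamini-Hochberg adjustment. Confidence intervals are limma's at 95%. Data simulated for this comparison, with 12377 genes of which 200 were changed, gave recoveries of 15.5% at 1.2-fold and 93.5% at 1.5-fold. The changed genes were drawn only from those above a minimum mean level. The folds were applied to FPKM + 1, so the fold in FPKM was larger for genes of low level. In the measured data 3198 genes passed, and the simulated noise was independent between libraries, so these recoveries may not hold for the measured data. Gene positions and exon overlaps are from GENCODE M21 (GRCm38, the assembly of mm10), and promoters from RefSeq, where all 9 symbols matched. Tables and figures were made in Python 3.11.15 (pandas 2.3.3, matplotlib 3.10.9).

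The 9 genes, the other lists and the tests were chosen with earlier results of these data known. Named are all 9, the other glycogen genes that passed, Gys2, Pygl, Gaa, Epm2a and Nhlrc1, the defining astrocyte and skeletal muscle markers, and the 2 genes most correlated with each of the 9 that passed. Gjb6, Gja1, Gfap, Ppp1r3f, Phkg2, Ruvbl2, Sumf2, Slc17a7, Gsk3a and Gsk3b were named after their values were seen. A few genes that the rule would name are not reported here, though they count in the lists.

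Replicate numbers are shared between the groups. Deviations from the group mean, compared between libraries of the same number, had correlations of 0.574, 0.496, 0.382 and 0.523 across all tested genes. Each exceeds 0.1, the bound for taking the numbers as pairs. Across 11136 autosomal protein-coding genes they were 0.335, 0.194, 0.076 and 0.371, and replicate 3 missed that bound. No label states the pairing. The alternatives tried were other pseudocounts, filters, scalings, moderation, covariates, row sums and leaving out each library.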

Additional observations from a re-analysis of the deposited data

Results flagged for a closer look

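Among 98 groups of 4 libraries searched, 3 had a library far from the others, and chance marks about 1 in 20 such groups. Gys2 was at 0.126 FPKM in fasted replicate 2, against 0.033 to 0.041 FPKM in the other fasted libraries, a level of few fragments. Gaa was at 63.85 FPKM in ad libitum replicate 2, against 56.6 to 57.8 FPKM in the other ad libitum libraries. Pgm2l1, a gene of the glucose 1,6-bisphosphate synthase chosen after its values were seen, was at 48.8 FPKM in fasted replicate 3, against 42.4 to 43.3 FPKM in the other fasted libraries.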

How the results depend on the processing

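The directions of Ugp2, Gyg, Gys1, Gbe1, Ppp1r3d and Pygm held in all 19 alternatives, and the calls of Ugp2 and Gyg in all 19. Under other settings the number of glycogen genes that were higher was 2 with quantile scaling and 2 with the replicate block, against 1 as reported. The other glycogen genes that were higher numbered 8 with median-ratio scaling, 7 with quantile scaling, 5 with equal-sum scaling and 9 with the replicate block, against 3. Over all tested genes 1792 were higher with quantile scaling and 1773 higher and 2733 lower with the replicate block. Ppp1r3d was the only one of the 9 genes whose call the block changed. With 1 library left out, the 9 genes gave 0 to 2 higher and 2 to 3 lower, the other glycogen genes 1 to 3 higher and 2 to 3 lower, and all tested genes 833 to 1193 higher and 1362 to 2529 lower. The count of 0 came without ad libitum replicate 3 and without fasted replicate 2, where Pygm missed the limma threshold (adjusted p = 0.0534 and 0.0525). Differences that took either sign with 1 library left out were those of Ppp1r3c (-0.16 to 0.017), Ppp1r3g (-0.049 to 0.15), Pygb (-0.0075 to 0.055), Gsk3a (-0.069 to 0.033) and Gsk3b (-0.015 to 0.017). For Ppp1r3g these were -0.046, -0.041 and -0.049 without fasted replicates 1 and 4 and ad libitum replicate 3. For Gsk3a, at -0.0089 as reported, they were 0.020 with median-ratio, 0.034 with quantile and 0.0094 with equal-sum scaling. The causes were not tested. The non-overlap of 4 of the 9 genes was also examined under scaling, an alternative chosen after seeing the data, and gave 5 with median-ratio and 4 with equal-sum scaling. Low values limit what can be said of Gys2 and Pygl.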
